A study of Mus musculus with 4 samples.

Results

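TRBV2 and TRBV4 are variable (V) segments of the mouse T cell receptor (TCR) β locus, known in the older nomenclature as Vβ4 and Vβ10. They are 2 of the 24 TRBV segments that were found in TCRβ transcripts of splenic CD4 T cells. A clone was counted as TRBV2 or TRBV4 when that segment was the first V hit given for it, with the allele left out, and no such clone had several V hits. By this rule 1919 clones with 9261 reads were TRBV2 and 6800 clones with 28883 reads were TRBV4, together 8719 of 382531 TCRβ clones. The clones were chosen by their V assignment alone, but the segments were picked with their read shares in these libraries already known, and TRBV4 had been singled out before by its read count in the same 4 libraries, so its lower level in Tet2/3 DKO is described here and is not independent evidence. In the RefSeq annotation of GRCm38.p6, the mm10 build that the submitters' processing notes name, Trbv2 lies at chr6:41047556-41047995 and Trbv4 at chr6:41059443-41059886, with Trbv3 between them, Trbv1 on their outer side and Trbv5 next to Trbv4.

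The libraries came from 2 wild type (WT) mice and 2 Tet2/3 DKO mice (Tet2-/- Tet3 flx/flx CD4Cre), and the question put to them is whether loss of the DNA demethylases TET2 and TET3 alters the TCR repertoire. In the Tet2/3 DKO mice Tet2 is deleted in the germline, while Tet3 is removed by a Cre driven by the CD4 promoter, which acts at the double positive stage, after TCRβ has been rearranged. The mice were about 25 days old, and the sorted cells were live CD4+CD25-TCRβ+ splenocytes that did not bind the αGalCer-loaded CD1d tetramer, which leaves out iNKT cells. Since only TCR transcripts were amplified, the CD4 identity of the cells could not be checked against other marker genes, and a rarer transcript cannot be told apart from fewer cells that carry it. The 4 libraries held 365421, 454098, 409444 and 569678 TCRβ reads in WT replicates 1 and 2 and Tet2/3 DKO replicates 1 and 2, in that order, and 81127 to 104017 clones. A clone is a distinct sequence from framework region 1 (FR1) to framework region 4. The kit adds no molecular identifiers, so reads are copies made by PCR, and the confidence intervals and limits below cover counting error only.

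A TCRβ chain is built when the RAG recombinase cuts beside a D and a J segment, joins them, and then joins a V segment to the product. Before each join, nucleases take bases off the cut ends and terminal transferase adds bases that no segment encodes. The third complementarity determining region (CDR3), which spans the joins and meets the peptide on the MHC molecule, therefore begins with the last bases of the V segment, while CDR1 and CDR2 lie within it.

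The sequences below are shown because TRBV2 and TRBV4, which differ at many positions, end almost alike. Each is the most frequent sequence among clones in which no V base had been removed, read 5′ to 3′, with 12 bases of framework region 3 (FR3) in lower case and the 17 V bases of the CDR3 in capitals.
TRBV2: gccacatacttcTGTGCCAGCAGCCAAGA
TRBV4: gctgtgtatctcTGTGCCAGCAGCTAAGA
Over the 287 bases from the start of FR1 to the V end, 180 positions (62.7%) were identical between them. Within the CDR3 part they differed at 1 of 17 positions, C13T, counted from 1 at the first base of the CDR3 with the TRBV2 base first. This position opens the fifth CDR3 codon, which reads CAA, for glutamine, in TRBV2 and TAA, a stop codon, in TRBV4.

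The TRBV4 segment held a smaller part of the TCRβ reads in the Tet2/3 DKO libraries than in the WT libraries, whereas TRBV2 was rare in both genotypes. The TRBV4 share was 2.05% of reads in WT replicate 1 (95% Wilson interval 2.01% to 2.10%) and 1.94% in WT replicate 2 (1.90% to 1.98%). It was 1.47% in Tet2/3 DKO replicate 1 (1.43% to 1.51%) and 1.15% in Tet2/3 DKO replicate 2 (1.13% to 1.18%). Both Tet2/3 DKO libraries were thus below both WT libraries, and the means were 1.996% ± 0.0835 (SD, n = 2) in WT and 1.31% ± 0.223 (SD, n = 2) in Tet2/3 DKO. On the log2 scale the fitted difference, Tet2/3 DKO minus WT, was -0.61 (SE 0.21), with an adjusted p of 0.369 in edgeR's quasi-likelihood test over all 24 segments. That test called 0 of 24 segments (0%), with 3 at an unadjusted p under 0.05, TRBV4 among them. DESeq2 called 1 segment, TRBV4 (log2 difference -0.58, SE 0.19, adjusted p 0.0457). Without Tet2/3 DKO replicate 1 edgeR called 8 segments, and TRBV4 was among them (-0.79, SE 0.26, adjusted p 0.0224). That fit holds 1 Tet2/3 DKO library, which is assumed to vary as the WT libraries do.

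Counting each TRBV4 clone once, whatever its reads, left both Tet2/3 DKO libraries below both WT libraries but narrowed the gap. TRBV4 made up 1.93% and 1.97% of clones in the WT libraries, against 1.73% and 1.52% in the Tet2/3 DKO libraries, and the fitted log2 difference was -0.26 (SE 0.10, adjusted p 0.673 in edgeR). Reads per TRBV4 clone were 4.80 and 4.44 for WT, against 3.58 and 4.17 for Tet2/3 DKO. Over all TCRβ clones the corresponding values were 4.50, 4.52, 4.22 and 5.48, so that TRBV4 clones carried fewer reads than the average clone of their library in both Tet2/3 DKO libraries and, by a small margin, in WT replicate 2. In WT replicate 1, where TRBV4 clones carried more reads than the average clone, 1 clone held 1281 of the 7508 TRBV4 reads (17.1%). By reads TRBV4 ranked 15 of 24 segments in 3 of the libraries and 18 in Tet2/3 DKO replicate 2.

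For TRBV2 the genotypes overlapped. It held 0.381% of the reads in WT replicate 1 (0.361% to 0.401%), 0.503% in WT replicate 2 (0.482% to 0.524%), 0.473% in Tet2/3 DKO replicate 1 (0.453% to 0.495%) and 0.641% in Tet2/3 DKO replicate 2 (0.620% to 0.662%). Tet2/3 DKO replicate 1 lay between the WT libraries, with a fitted log2 difference of 0.33 (SE 0.31, adjusted p 0.626 in edgeR). This was 0.10 without Tet2/3 DKO replicate 2, 0.15 without WT replicate 1, 0.55 without WT replicate 2 and 0.54 without Tet2/3 DKO replicate 1. By clones the means were 0.4999% ± 0.0533 (SD, n = 2) in WT and 0.5004% ± 0.0306 (SD, n = 2) in Tet2/3 DKO, and TRBV2 ranked 19 to 22 of the 24 segments by reads. The largest read share of TRBV2, in Tet2/3 DKO replicate 2, went with 7.33 reads per clone, against 3.71 to 4.23 in the other libraries.

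**Figure D1:**
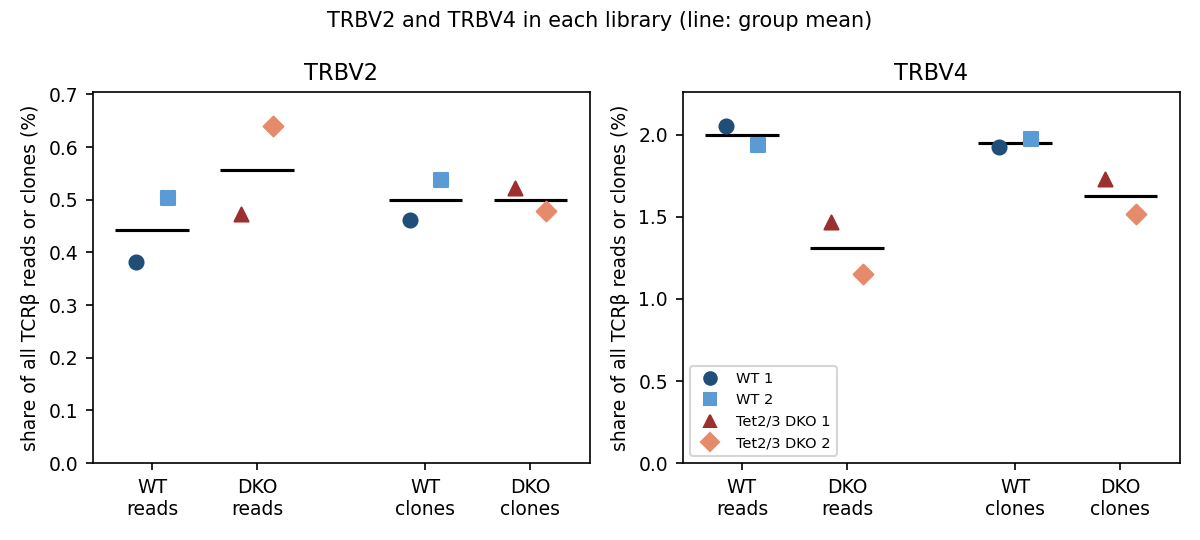
Share (%) of all TCRβ reads and of all TCRβ clones held by TRBV2 (left) and TRBV4 (right), with 1 point per library and a line at the mean of each genotype. For TRBV4 both Tet2/3 DKO points lie below both WT points, by reads (1.47% and 1.15% against 2.05% and 1.94%) and by clones, while for TRBV2 the genotypes overlap.

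The neighbouring segments are given for comparison. TRBV3, which lies between TRBV2 and TRBV4, had a fitted log2 difference of -0.01 (SE 0.13, adjusted p 0.956), and TRBV5, on the other side of TRBV4, one of -0.12 (SE 0.12, adjusted p 0.668). TRBV1 went the other way, with 3.10% and 3.17% of reads in WT and 3.78% and 4.15% in Tet2/3 DKO (0.34, SE 0.15, adjusted p 0.369). All of these come from the same edgeR fit, and none of the differences between these segments was itself tested.

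TRBV2 and TRBV4 differed in how much of the V end was left in the CDR3, in all 4 libraries. Among in-frame TRBV2 clones, the V end was given as complete in 45.7% and 45.8% in the WT libraries, against 49.8% and 47.2% in the Tet2/3 DKO libraries. For TRBV4 the corresponding shares were 1.43%, 1.54%, 1.404% and 0.967%. In all 4 libraries most in-frame TRBV4 clones lacked 4 or 5 bases: the removal of exactly 5 bases was the most frequent outcome, with 41.2%, 40.4%, 38.4% and 37.1% of clones, followed by 4 bases with 28.3%, 30.3%, 31.2% and 32.3%. At least 3 bases, enough to break up the TAA codon, were missing from 96.0% of in-frame TRBV4 clones over all libraries, and from 27.8% of in-frame TRBV2 clones. Since a clone with a stop codon is not counted as in-frame, an in-frame TRBV4 clone cannot hold the complete reference end, and the 78 in-frame clones given as complete by the aligner all had a mismatch to it.

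**Figure D2:**
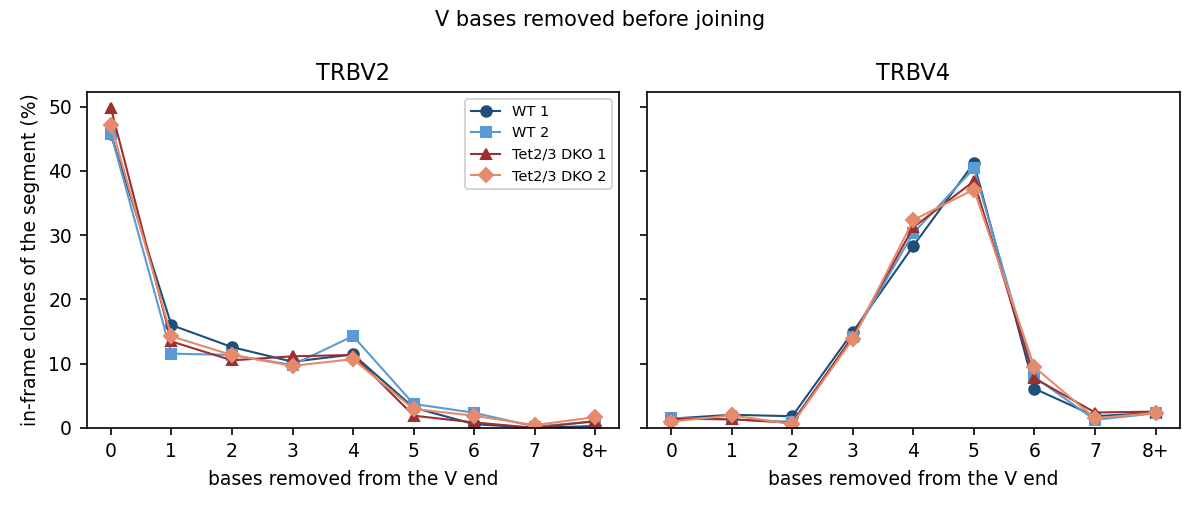
Bases removed from the V end of in-frame TRBV2 (left) and TRBV4 (right) clones, as a share (%) of the in-frame clones of that segment in each library, with 8 or more bases pooled. The 4 libraries lie on nearly the same curve, which peaks at 0 bases for TRBV2 (45.7% to 49.8%) and at 5 bases for TRBV4 (37.1% to 41.2%).

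Out-of-frame clones encode no complete chain and are given for comparison. Out-of-frame TRBV4 clones had the complete reference end in 135 of 598 cases (22.6%), against 0 of 5781 in-frame TRBV4 clones. Out-of-frame TRBV2 clones had it in 49 of 98 cases (50%) and in-frame TRBV2 clones in 806 of 1814 cases (44.4%). By library the share among out-of-frame clones was 20.0% to 28.6% for TRBV4 and 44.4% to 55.2% for TRBV2, with no overlap. Among out-of-frame clones, too, the complete end was found less often with TRBV4 than with TRBV2 in each of the 4 libraries. Some out-of-frame clones can be in-frame ones read with a sequencing error, and their part in these shares was not tested.

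The stop codon of TRBV4 could be seen directly in clones that kept it. Of all TRBV4 clones, 151 had an intact frame with a stop codon in the CDR3, and in 137 of them it was the fifth codon, 118 times as TAA. Of the 151 clones, WT replicates 1 and 2 held 36 and 34, and Tet2/3 DKO replicates 1 and 2 held 39 and 42. As shares of TRBV4 clones with a CDR3 these were 2.43%, 1.78%, 2.40% and 2.77% in the same order, so the genotypes overlapped. By reads the shares were 1.34%, 1.03%, 2.17% and 1.65%, without overlap. The share with a stop codon was not tested between the genotypes. TRBV2 had 3 clones with a stop codon over all libraries, and in 0 of them it was the fifth codon.

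TRBV4 also had a lower share of in-frame clones than TRBV2, and lower than the remaining TRBV segments. Among TRBV4 clones with a CDR3, 89.5% and 88.3% were in-frame in WT and 87.7% and 88.8% in Tet2/3 DKO. The shares of TRBV2 clones were 93.6%, 94.98%, 94.1% and 96.0% in the same order, and those of all other TRBV clones 96.2%, 96.6%, 96.3% and 96.3%. Both parts of the remainder were larger for TRBV4: out-of-frame clones made up 8.03% to 9.96% of TRBV4 clones and 3.22% to 3.65% of other TRBV clones, and clones with a stop codon 1.78% to 2.77% against 0.185% to 0.238%. By reads, the in-frame share was 92.0% for TRBV4 and 97.5% for the other segments, a within-library difference of -5.55 percentage points (SD 1.59, n = 4), lower in 4 of 4 libraries. The exact two-sided sign-flip permutation test over the 4 libraries gave 0.125, the smallest p it can give with 4 libraries, and 0.212 after adjustment over the 22 within-library comparisons made.

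The fifth residue of the CDR3, which the codon in question encodes, was glutamine in 78.9%, 72.8%, 79.5% and 76.2% of TRBV2 clones with an intact frame, in the order WT 1, WT 2, Tet2/3 DKO 1 and Tet2/3 DKO 2. In TRBV4 no residue held so large a part. Tyrosine, the most frequent one, was found in 15.7%, 14.9%, 15.1% and 14.7% of clones, and over all libraries leucine (13.1%), arginine (13.0%), proline (12.3%) and serine (11.6%) came close to it. Glutamine was at 4.42% in TRBV4, over all libraries.

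The CDR3 of TRBV4 was shorter than that of TRBV2, by less than 1 amino acid on average. Counting each in-frame clone once, the mean length was 14.2 and 14.3 amino acids for TRBV2 in the WT libraries, against 14.2 and 14.0 in the Tet2/3 DKO libraries. For TRBV4 it was 13.3 and 13.4 for WT, against 13.3 and 13.3 for Tet2/3 DKO, and for all other TRBV segments it was 13.6 to 13.7. Weighted by reads, TRBV2 exceeded TRBV4 by 0.81 amino acids (SD 0.23, n = 4) and the other segments by 0.40 (SD 0.18), while TRBV4 was 0.41 shorter than the others (mean difference -0.41, SD 0.0753). Each of these differences had the same sign in 4 of 4 libraries, with an exact sign-flip p of 0.125, the smallest possible, and an adjusted p of 0.212. Lengths of 15 or 16 amino acids were frequent in TRBV2, where 15 alone held 26.0% to 34.8% of in-frame clones, against 12.9% to 14.3% in TRBV4. Lengths of 12 amino acids were found in 17.4% to 18.9% of TRBV4 clones and in 5.87% to 6.09% of TRBV2 clones.

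**Figure D3:**
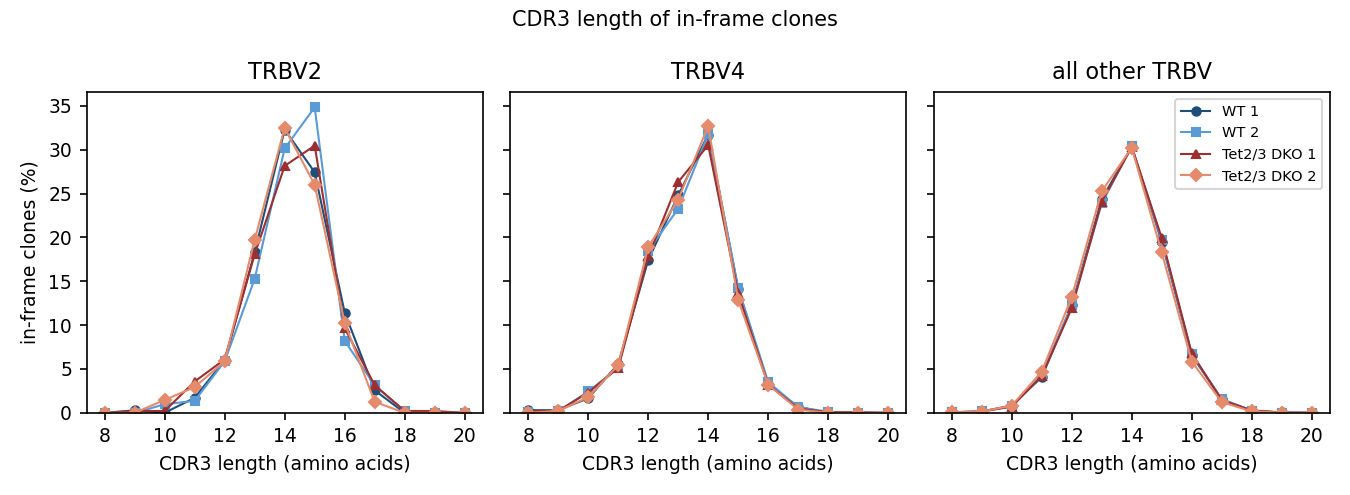
CDR3 length (amino acids) of in-frame clones with TRBV2, TRBV4 and all other TRBV segments, as a share (%) of in-frame clones, with 1 line per library. At 15 amino acids the TRBV2 curves (26.0% to 34.8% of clones) lie above those of TRBV4 (12.9% to 14.3%).

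The V bases removed and the bases between the V and J ends both enter into this length, as do the J bases kept, which were not compared here. Read-weighted, 1.47 V bases were missing on average from in-frame TRBV2 clones, 4.43 from TRBV4 and 2.17 from the other segments. The stretch between the V and J ends, which holds the D segment and the added bases, averaged 7.64 bases in TRBV2 and 8.71 in TRBV4. TRBV2 was below TRBV4 in both quantities in 4 of 4 libraries (differences of -2.96 bases, SD 0.26, and -1.07 bases, SD 0.34), each with an exact sign-flip p of 0.125. For the V bases removed this test says little, since in-frame TRBV4 clones with the reference TAA codon are left out by definition. Out-of-frame clones, each counted once over all libraries, lacked 1.32 V bases on average in TRBV2 and 2.79 in TRBV4. Where a D segment was assigned, TRBD2 made up 40.7% of TRBV2 reads and 46.2% of TRBV4 reads on average, with a within-library difference of -5.46 percentage points (SD 7.41, n = 4, exact p 0.375). It was -2.86 without Tet2/3 DKO replicate 1 and -8.60 without Tet2/3 DKO replicate 2.

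Between the genotypes, 4 measures were tested for each segment. In limma fits over the 22 segments with at least 100 clones in every library, 0 segments (0%) were called for CDR3 length, in-frame share, TRBJ2 share or the share of the 10 largest clones. At an unadjusted p under 0.05 there were 1, 1, 0 and 0 segments, neither TRBV2 nor TRBV4 among them. The V bases removed, the stretch between the V and J ends, the TRBD2 share and the fifth residue were not tested between the genotypes. Of these, the TRBD2 share of TRBV4 reads was 47.98% and 50.7% for WT, against 44.5% and 41.6% for Tet2/3 DKO, and the V to J stretch of TRBV4 averaged 8.80 and 8.87 bases for WT, against 8.51 and 8.66 for Tet2/3 DKO, so that the libraries of the genotypes did not overlap in either. The remaining TRBV segments, pooled, showed the same split in TRBD2 share, 44.6% and 43.6% for WT and 40.9% and 41.7% for Tet2/3 DKO, so it was not particular to TRBV4. Their V to J stretch averaged 8.497 and 8.61 bases for WT, against 8.53 and 8.38 for Tet2/3 DKO, which overlapped. Over clones, each weighted alike, the averages were 8.77 and 8.84 against 8.75 and 8.63, without overlap. The shares of complete V ends among in-frame TRBV2 clones, given above, did not overlap either. As the fifth residue of TRBV4 clones, glutamine was at 5.65% and 4.66% for WT, against 4.10% and 3.25% for Tet2/3 DKO. Proline was also lower in both Tet2/3 DKO libraries and serine higher, while leucine, arginine, tyrosine and phenylalanine overlapped. By reads, these V ends and residues all overlapped, while tryptophan, which overlapped by clones, did not. With 2 against 2 libraries the smallest exact permutation p is 0.333, so such splits are frequent where nothing differs. The fifth residue of the other TRBV segments was not compared. The read-weighted CDR3 length of TRBV2 was 14.1 and 14.3 amino acids in WT, against 14.1 and 13.7 in Tet2/3 DKO, a difference of -0.28 (SE 0.13, adjusted p 0.371). Without Tet2/3 DKO replicate 1 this difference was -0.48 (SE 0.0908) and passed the threshold with an adjusted p of 0.000571. This fit has 1 Tet2/3 DKO library, replicate 2, whose 10 largest clones held 41.5% of TRBV2 reads, and takes the spread from the WT libraries alone. It called 4 of the 22 segments, with 8 at an unadjusted p under 0.05. Without Tet2/3 DKO replicate 2 the TRBV2 length difference was only -0.08 amino acids. For TRBV4 the difference was -0.05 amino acids (SE 0.0781, adjusted p 0.734), and it ran from -0.076 to -0.030 with each library left out. The in-frame share of TRBV4 reads differed by -1.87 percentage points (SE 1.24, adjusted p 0.641) and that of TRBV2 by 0.83 (SE 1.64, adjusted p 0.842). When Tet2/3 DKO replicate 2 was left out, the TRBV4 value was -3.21 and the TRBV2 value turned to -1.11. When Tet2/3 DKO replicate 1 was left out, they were -0.53 and 2.77. TRBJ2 segments held 74.2%, 68.9%, 71.2% and 62.3% of TRBV2 reads in the order WT 1, WT 2, Tet2/3 DKO 1 and Tet2/3 DKO 2, a genotype difference of -4.81 percentage points (SE 3.46, adjusted p 0.701). It was -9.25 without Tet2/3 DKO replicate 1 and -0.36 without Tet2/3 DKO replicate 2. They held 79.97%, 73.8%, 71.1% and 75.004% of TRBV4 reads, a difference of -3.82 (SE 3.10, adjusted p 0.735), which was -6.90 without WT replicate 2 and -0.74 without WT replicate 1.

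Both segments were found with each of 12 TRBJ segments, and most often with those of the second cluster. Partners are ordered here by their mean share of reads over the 4 libraries. TRBJ2-7 was the most frequent partner of TRBV2, with 18.8% and 15.4% of reads in WT and 22.4% and 23.8% in Tet2/3 DKO. It was followed by TRBJ2-4, with 13.4%, 10.2%, 11.1% and 14.3%, and TRBJ2-5, with 17.2%, 11.5%, 12.9% and 7.18%. Of these, TRBJ2-5 was the higher in 3 of the 4 libraries. TRBJ1-6 was the rarest, with 0.575%, 2.15%, 2.17% and 0.904%. For TRBV4 the order began with TRBJ2-7, at 18.5%, 20.9%, 20.5% and 20.6%, followed by TRBJ2-5, at 13.4%, 17.3%, 16.1% and 16.8%, and TRBJ2-4, at 11.96%, 14.9%, 15.7% and 16.97%. In WT replicate 1 TRBJ2-2, at 21.96%, exceeded TRBJ2-7, and in Tet2/3 DKO replicate 2 TRBJ2-4 exceeded TRBJ2-5. Its rarest partner was TRBJ1-5, at 1.43%, 1.07%, 1.86% and 2.10%.

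By clones, some partners of TRBV4 set it apart from the other TRBV segments in every library. TRBJ2-4 was joined to 14.9% of TRBV4 clones and 11.1% of other TRBV clones, a difference of 3.79 percentage points (SD 0.75, n = 4), higher in 4 of 4 libraries. TRBJ2-3 was joined to 6.02% of TRBV4 clones against 9.31%, a difference of -3.29 (SD 0.54), lower in 4 of 4 libraries. TRBJ2-2 (-1.78, SD 0.66), TRBJ1-4 (-1.58, SD 0.52) and TRBJ1-2 (-0.62, SD 0.72) were lower as well, and TRBJ2-5 (1.67, SD 1.29) and TRBJ1-6 (1.09, SD 0.22) higher, in 4 of 4 libraries each. In TRBV2 clones, TRBJ1-2 was higher than in other TRBV clones, 7.01% against 4.84% (difference 2.17, SD 1.11), and TRBJ2-3 (-1.51, SD 0.65), TRBJ2-1 (-1.13, SD 0.39) and TRBJ1-6 (-0.55, SD 0.56) lower, in 4 of 4 libraries each. Each of these had an exact sign-flip p of 0.125, the smallest possible, and an adjusted p of 0.25 over the 36 J comparisons, so none could pass the threshold. The partners of this paragraph were chosen after their values were seen.

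**Figure D4:**
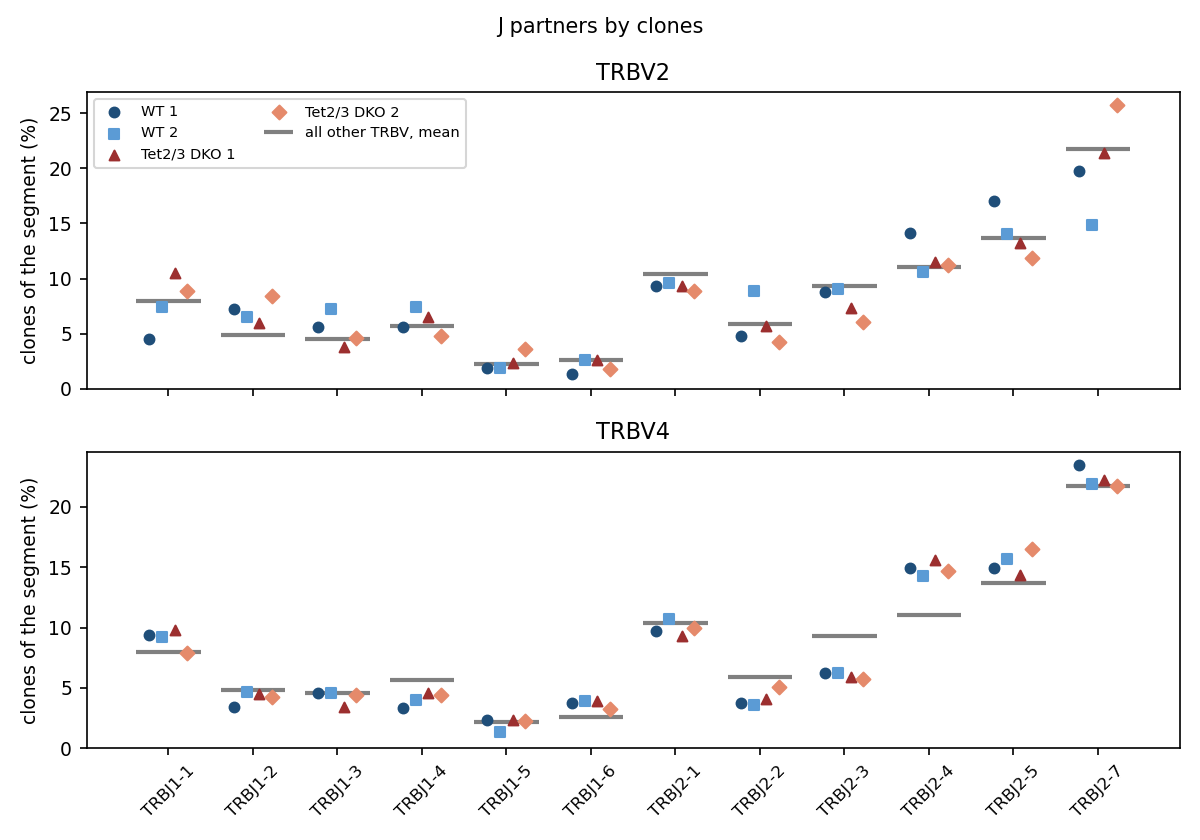
Share (%) of TRBV2 clones (top) and TRBV4 clones (bottom) joined to each TRBJ segment, with 1 point per library and a grey line at the mean of all other TRBV clones. For TRBV4 the 4 libraries lie close together, above the line at TRBJ2-4 and below it at TRBJ2-3.

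Between the genotypes, edgeR called 0 of 285 V-J pairs (0%), with 29 at an unadjusted p under 0.05, and DESeq2 called 0 as well. Of the 24 pairs with TRBV2 or TRBV4, 5 were among these 29. In edgeR the pairs were fitted against all TCRβ reads, so a difference of a whole V segment enters into each of its pairs. With the replicate number as a block, edgeR called 2 pairs, TRBV4 with TRBJ2-2 among them (log2 difference -1.76, SE 0.43, adjusted p 0.0147). The pair of TRBV4 with TRBJ2-2 held 21.96% of TRBV4 reads in WT replicate 1, against 4.20% in WT replicate 2, 3.69% in Tet2/3 DKO replicate 1 and 5.10% in Tet2/3 DKO replicate 2. Only WT replicate 1 stood apart, and the fitted log2 difference of -2.23 (SE 0.52, adjusted p 0.0865) rested on it. Without that library it was -0.52 (SE 0.61, adjusted p 1), and without WT replicate 2 it was -2.996 (SE 0.51, adjusted p 3.88e-06), with WT replicate 1 as the lone WT library and the spread taken from Tet2/3 DKO. That fit called 4 of the 285 pairs, and this was the only one with TRBV2 or TRBV4. Without WT replicate 1 the TRBV4 segment as a whole was at -0.56, close to the -0.52 of the pair. By clones the pair made up 3.77%, 3.58%, 4.05% and 5.07% of TRBV4 clones. The pair of TRBV2 with TRBJ1-1 held 3.88% and 6.75% of TRBV2 reads in WT, against 8.31% and 12.8% in Tet2/3 DKO, a log2 difference of 1.32 (SE 0.52, adjusted p 0.388). Without Tet2/3 DKO replicate 1, when 50 pairs were called, this pair was called (1.75, SE 0.52, adjusted p 0.0421), as were TRBV2 with TRBJ1-4 (1.67, SE 0.41, adjusted p 0.0207) and TRBV4 with TRBJ2-7 (-0.72, SE 0.20, adjusted p 0.0307). Here, too, only the WT libraries give the spread, and 325 of the 554 reads of TRBV2 with TRBJ1-4 in Tet2/3 DKO replicate 2 came from 1 clone. Without Tet2/3 DKO replicate 1 the whole segments were at 0.54 for TRBV2 and -0.79 for TRBV4. Within TRBV4 reads, TRBJ2-7 held 18.5% and 20.9% in WT, against 20.5% and 20.6% in Tet2/3 DKO.

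The largest clones are shown because the one of TRBV4 in WT replicate 1 holds most of the reads of that pair. Each line gives the CDR3 of the largest clone of a segment in a library, with the bases aligned to the V segment in capitals.
TRBV2 in WT replicate 1: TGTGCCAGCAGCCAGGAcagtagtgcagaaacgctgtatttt
TRBV2 in WT replicate 2: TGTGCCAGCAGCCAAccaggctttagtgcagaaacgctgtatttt
TRBV2 in Tet2/3 DKO replicate 1: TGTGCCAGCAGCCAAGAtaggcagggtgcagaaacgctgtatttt
TRBV2 in Tet2/3 DKO replicate 2: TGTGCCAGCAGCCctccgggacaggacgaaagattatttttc
TRBV4 in WT replicate 1: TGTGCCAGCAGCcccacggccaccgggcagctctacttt
TRBV4 in WT replicate 2: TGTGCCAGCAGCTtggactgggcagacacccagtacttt
TRBV4 in Tet2/3 DKO replicate 1: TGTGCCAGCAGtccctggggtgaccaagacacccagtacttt
TRBV4 in Tet2/3 DKO replicate 2: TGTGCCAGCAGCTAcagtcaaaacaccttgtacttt
The capitals of the first one carry A15G against the TRBV2 end, with positions counted from the first CDR3 base, and the other 7 match the end of their segment. In none of the TRBV4 clones is the fifth codon TAA, since 3 to 6 V bases had been removed from each.

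The largest TRBV4 clone, the one joined to TRBJ2-2 in WT replicate 1, had 1281 reads. It was the clone of rank 2 in its library, with 0.351% of all TCRβ reads and 17.1% of the TRBV4 reads. The next TRBV4 clone of that library had 86 reads. Together with 5 other clones of the same V and J segments and CDR3 nucleotides, the largest clone held 1388 reads. The same CDR3 amino acid sequence with the same V and J segments was found in Tet2/3 DKO replicate 1 with 1 read, and in neither WT replicate 2 nor Tet2/3 DKO replicate 2. Without this clone the TRBV4 share of WT replicate 1 was 1.71%. Without the largest clone of each other library it was 1.89% in WT replicate 2, 1.45% in Tet2/3 DKO replicate 1 and 1.13% in Tet2/3 DKO replicate 2, so that the genotypes still did not overlap. With the 10 largest clones of each library left out, edgeR gave TRBV4 a log2 difference of -0.45 (SE 0.24, adjusted p 0.351).

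In the other libraries the largest TRBV4 clone was smaller. That of WT replicate 2, with TRBJ2-5, had 219 reads (2.49% of TRBV4 reads), that of Tet2/3 DKO replicate 1, also with TRBJ2-5, had 79 reads (1.31%) and that of Tet2/3 DKO replicate 2, with TRBJ2-4, had 153 reads (2.33%). The 10 largest TRBV4 clones held 23.9% and 10.2% of TRBV4 reads in WT and 5.02% and 9.19% in Tet2/3 DKO. The log2 difference was -1.20 (SE 0.98, adjusted p 0.956 in limma), and it was -0.59 without WT replicate 1, -0.77 without Tet2/3 DKO replicate 1 and -1.82 without WT replicate 2.

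In TRBV2 the largest clones had 59 reads (4.24% of TRBV2 reads) in WT replicate 1, 101 reads (4.43%) in WT replicate 2 and 73 reads (3.77%) in Tet2/3 DKO replicate 1, all joined to TRBJ2-3. Tet2/3 DKO replicate 2 stood apart, with a clone joined to TRBJ1-4 at 325 reads (8.91%) and the next one at 220 reads. There the 10 largest clones held 41.5% of TRBV2 reads, against 16.4%, 13.3% and 12.02% in WT replicates 1 and 2 and Tet2/3 DKO replicate 1. The other TRBV segments, pooled, also had their highest value in that library, where their 10 largest clones held 6.32% of reads, against 2.27%, 1.33% and 1.15%. Its 20 largest clones were enough to reach 50% of the TRBV2 reads, where 87, 119 and 117 were needed in the other libraries. The genotype difference in the log2 share of the 10 largest clones was 0.60 (SE 0.98, adjusted p 0.956 in limma). It turned to -0.30 when Tet2/3 DKO replicate 2 was left out, and was 1.49 when Tet2/3 DKO replicate 1 was left out.

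Few chains with TRBV4, and none with TRBV2, recurred in all 4 libraries. Counting in-frame chains as distinct combinations of J segment and CDR3 amino acid sequence, 16 of 4691 TRBV4 chains (0.341%) were found in every library. They held 210 and 213 reads in WT and 192 and 330 in Tet2/3 DKO, which was 2.80%, 2.42%, 3.19% and 5.02% of TRBV4 reads. Of TRBV2 chains it was 0 of 1530, which allows a share of up to 0.196%, and of the chains with other TRBV segments 2671 of 235406 (1.13%). Clones per library numbered 375 to 540 for TRBV2, 1563 to 1981 for TRBV4 and 79189 to 101942 for the other segments pooled. A chain is more likely to recur where more clones were read, and the part of this in the shares was not tested. Chains found in 1 library only made up 96.7% of TRBV2 chains and 91.5% of TRBV4 chains.

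The TRBV4 chains that recurred with the largest read shares are shown because little besides V and J sequence went into them, again with the V bases in capitals.
TRBJ2-4, tyrosine as the fifth residue: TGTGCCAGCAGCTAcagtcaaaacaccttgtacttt
TRBJ2-7, serine as the fifth residue: TGTGCCAGCAgctcctatgaacagtacttc
TRBJ2-4, phenylalanine as the fifth residue: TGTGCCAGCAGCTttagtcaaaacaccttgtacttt
The TRBJ2-4 chain with tyrosine had 19 and 13 reads in WT, against 15 and 180 in Tet2/3 DKO, so that Tet2/3 DKO replicate 2 was far above the rest. The TRBJ2-7 chain had 25, 20, 37 and 38 reads in the same order, from 5 different nucleotide sequences. The TRBJ2-4 chain with phenylalanine had 49, 25, 23 and 23 reads, all with the same nucleotide sequence. The read-weighted mean distance between the V and J ends was 0.833, 0 and 1 bases in these chains, against 8.71 over all in-frame TRBV4 reads.

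Part of the TRBV4 reads lacked a large piece of the V segment, which was the same in most of these clones. The TRBV4 sequence from FR1 to the V end is shown with the missing stretch in capitals.
TRBV4: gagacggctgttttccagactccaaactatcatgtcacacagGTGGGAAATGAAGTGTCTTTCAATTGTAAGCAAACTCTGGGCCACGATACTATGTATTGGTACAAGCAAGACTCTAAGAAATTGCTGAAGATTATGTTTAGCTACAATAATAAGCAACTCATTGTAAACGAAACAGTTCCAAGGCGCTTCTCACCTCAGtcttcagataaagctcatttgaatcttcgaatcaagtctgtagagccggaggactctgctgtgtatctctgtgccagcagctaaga
The stretch runs from base 43 to base 201 of the 287, counted from the first base of FR1, and its 159 bases are a multiple of 3. It starts within FR1, takes in CDR1, FR2 and CDR2, and ends within FR3. The ends can be placed in 4 equivalent ways, and the placement that starts with GT and ends with AG, the letters with which most introns begin and end, is shown. The joined sequence around the deletion, with the bases that follow it in capitals, was as follows.
TRBV4 joined: tatcatgtcacacagTCTTCAGATAAAGCT
For comparison, the intact TRBV2 sequence, with its CDR3 part in capitals, has AC and AA where the missing stretch of TRBV4 starts and ends.
TRBV2: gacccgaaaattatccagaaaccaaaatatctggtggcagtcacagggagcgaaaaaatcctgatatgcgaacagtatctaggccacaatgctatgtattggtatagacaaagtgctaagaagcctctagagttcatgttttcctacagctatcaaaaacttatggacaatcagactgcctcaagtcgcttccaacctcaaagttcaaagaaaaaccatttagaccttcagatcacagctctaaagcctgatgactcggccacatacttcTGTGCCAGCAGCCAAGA

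This deletion was found in 189 TRBV4 clones with 938 reads, in all 4 libraries. It made up 3.20% of TRBV4 reads in WT replicate 1 (95% Wilson interval 2.82% to 3.62%), 3.55% in WT replicate 2 (3.18% to 3.96%), 3.14% in Tet2/3 DKO replicate 1 (2.73% to 3.62%) and 3.00% in Tet2/3 DKO replicate 2 (2.61% to 3.44%). A shorter deletion, from base 68 to the same base 201, was found in 24 clones with 135 reads, also in all 4 libraries. With its 134 bases it is no multiple of 3. With all internal deletions of at least 20 bases counted, the shares were 4.37%, 4.14%, 3.79% and 3.44%, both WT libraries being above both Tet2/3 DKO libraries. Deletions were not searched for in the remaining TRBV segments, but their reads without an assigned CDR3 split in the same way, with 0.925% and 0.939% for WT and 0.706% and 0.699% for Tet2/3 DKO. The TRBV4 means were 4.25% ± 0.162 (SD, n = 2) in WT and 3.62% ± 0.249 (SD, n = 2) in Tet2/3 DKO, with an exact permutation p of 0.333, the smallest that 2 against 2 libraries can give. In TRBV2 internal deletions held 0.431%, 0.570%, 0.0516% and 0% of reads, where the count of 0 of 3649 reads allows up to 0.0822%, and no deletion recurred in 3 or more clones.

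**Figure D5:**
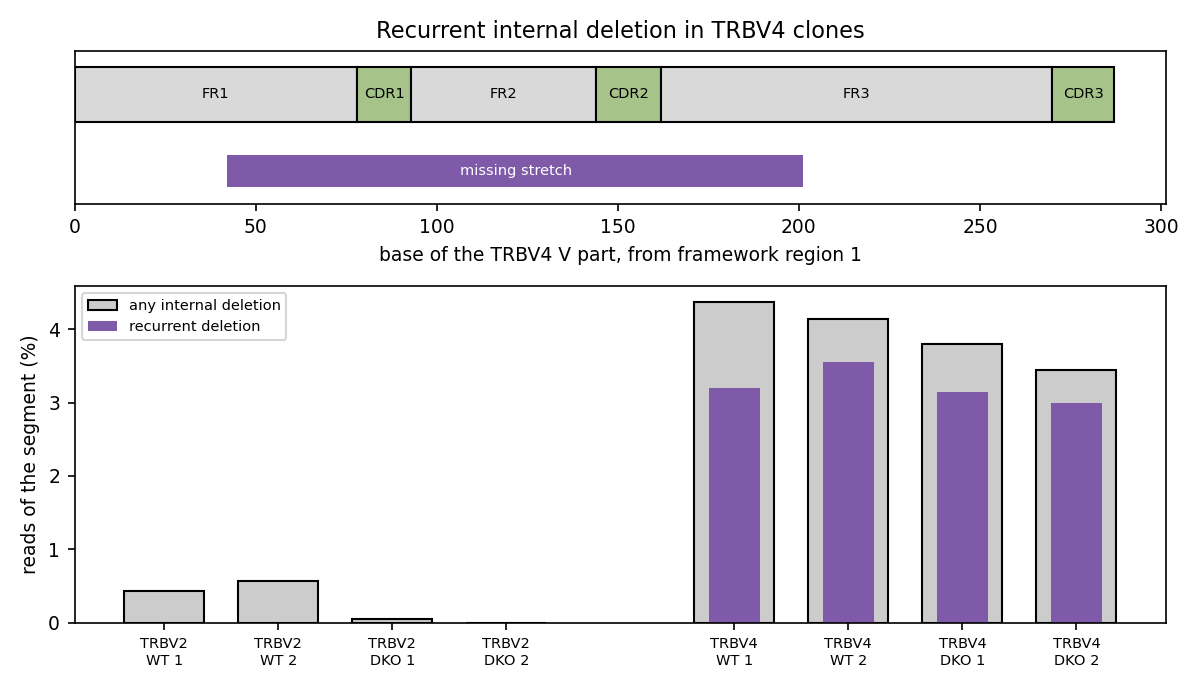
Top, the TRBV4 V part from FR1 (bases on the horizontal axis) with its framework and complementarity determining regions and the recurrent missing stretch from base 43 to base 201. Bottom, reads with any internal deletion (grey) and with the recurrent one (violet) as a share (%) of the reads of TRBV2 and TRBV4 in each library, where the recurrent one held 3.00% to 3.55% of TRBV4 reads and 0% of TRBV2 reads.

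The clones with the deletion were assigned to TRBV4 but given no CDR3. All 189 clones with the recurrent deletion lacked an assigned CDR3, and 221 of the 270 TRBV4 clones without a CDR3 (81.9%) had an internal deletion. In all, 3.98% to 4.54% of TRBV4 reads had no assigned CDR3, against 0% to 0.431% of TRBV2 reads and 0.699% to 0.939% of the reads of other segments. Of the 189 clones, 25 (13.2%) had an intact clone with the same sequence downstream of the deletion in the same library. In the other libraries such an intact partner was found for 1.75% to 6.35% of the clones, as the mean of the 3 libraries for each. The largest TRBV4 clone, the TRBJ2-2 clone of WT replicate 1, with 1281 intact reads, also occurred with the deletion in 36 reads, 2.73% of both forms together. Whether the stretch was lost by splicing of the transcript was not tested.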

How the data were processed

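Sorted splenic CD4 T cells gave 20 ng of RNA per library for a 5′-RACE TCR kit. After trimming with fastp (0.21.0) the authors ran MiXCR (4.7.0) to build clones, and they deposited a count of reads per clone and its fraction of the reads of the chain. The count share equalled the deposited fraction. TCRα tables were not used here. The members and lists were chosen with earlier results of these data known.

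Reads per TRBV segment and per V-J pair with at least 10 reads in total were compared in edgeR 4.0.16 (quasi-likelihood test), with total TCRβ reads as the library size. Means per segment were tested with limma 3.58.1 over 22 segments. Benjamini-Hochberg adjustment with a threshold of 0.05 was used. Values within libraries were compared by exact two-sided sign-flip tests. Scripts were tested on simulated data, in which 100% of 500 inserted deletions were found. These were put into error-free TRBV4 sequence and were shorter than the recurrent ones of 134 and 159 bases, so recovery in real clones was not tested. The search required every base from the start of FR1 to the deletion to match, at least 20, and 20 matching bases after it. Clones with a mismatch before the deletion could thus be missed.

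By rule, the text names TRBV2 and TRBV4, the neighbours TRBV1, TRBV3 and TRBV5, the 3 largest and the smallest J partner, pairs past the threshold, the largest clone per library and the 3 leading chains found in all libraries. J pairs and clones outside it were chosen after their values were seen. Alternatives were DESeq2 1.42.0, TMM factors, no filter, each clone counted once, in-frame clones, clones with at least 2 reads, no 10 largest clones, merged clones, drawn-down reads, a replicate block and each library left out. Keeping only clones with a CDR3 and merging clones for segment usage were chosen after seeing the data. Positions within the V part came from the deposited clone sequences, and gene coordinates from RefSeq.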

Additional observations from a re-analysis of the deposited data

How the results depend on the processing

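The smallest exact p between 2 libraries per genotype is 0.333, and the reads carry PCR copies as well as molecules. Out-of-frame TRBV2 clones numbered 98 in all, which limits their shares.

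The count of TRBV segments called by edgeR was 0, and 1 with DESeq2, where TRBV4 (-0.58) passed the threshold. With each library left out it ranged from 0 to 8, the log2 difference of TRBV4 from -0.79 to -0.44 and that of TRBV2 from 0.10 to 0.55. TRBV4 was lower in Tet2/3 DKO under every alternative run for segment usage. The count of V-J pairs called was 0, 7 without the 10 largest clones of each library and 0 to 50 with each library left out. The pair of TRBV4 with TRBJ2-2 ranged from -2.996 to -0.52 with each library left out and turned to 0.0374 when each clone was counted once. CDR3 length gave 1 called segment when each clone was counted once and 0 to 4 with each library left out, with TRBV2 at -0.48 to -0.08. The counts for TRBJ2 share and for the 10 largest clones went from 0 to 1 with each library left out. Leaving out Tet2/3 DKO replicate 2 turned the sign of 2 TRBV2 differences, in-frame share (-1.11) and 10 largest clones (-0.30), which ranged from -1.11 to 2.77 and from -0.30 to 1.49. The TRBD2 share of TRBV2 against other segments ranged from -3.93 to 0.54 and was above 0 without Tet2/3 DKO replicate 1. The cause of these shifts was not tested.

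The replicate numbers are shared between genotypes, but the labels do not say that they pair the samples. Deviations of samples with the same number correlated at 0.179 over segments and -0.0598 over V-J pairs, which does not settle whether they are paired. With the replicate block, 2 V-J pairs were called, TRBV4 with TRBJ2-2 among them (-1.76, adjusted p 0.0147), and TRBV4 usage was -0.62 (adjusted p 0.0943).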
